A study of Mus musculus with 9 samples.

Results

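The genes described here are 36 markers of the cells that build small blood vessels of the central nervous system, out of 55401 genes in the deposited table. They were chosen by gene symbol and grouped by role: 5 junction and adhesion genes, 5 receptors of vascular growth factors, 8 transporters of the barrier, 1 arterial and 1 venous marker, 7 other endothelial genes, 6 pericyte genes and 3 smooth muscle genes. The rule used no measured value, and all 36 symbols were found.

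Endothelial cells line every vessel. In the brain and spinal cord they are sealed to each other by tight junctions, let little cross by vesicles, and carry nutrients in and xenobiotics out through membrane transporters, which together make the blood-brain and blood-spinal cord barrier. Pericytes lie on capillaries and help to keep this barrier, and smooth muscle cells wrap arteries and arterioles. Injury of the cord opens the barrier and is followed by vessel loss and regrowth.

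Smart-seq2, a method that reads full-length cDNA from very little RNA, was applied to spinal motoneurons of wild-type mice, which were labelled with a tracer called TRDA and drawn from cord slices into glass electrodes 4 weeks after spinal cord injury (SCI). The SBES group had the injury and synergistic bidirectional electrical stimulation, at 10, 15 and 20 Hz in replicates 1, 2 and 3, so each frequency has 1 library. The untrained group had the injury without stimulation, and the labels list the treatment of the sham group as none. Each group has 3 libraries and 3 mice, but no label says which mouse a library came from or how many neurons it holds, so p-values measure the spread between libraries, part of which may be technical. The labels read here state neither age nor sex. Columns of 5 libraries were matched by name, and those of the 3 untrained libraries and of SBES replicate 1 by elimination, so every value of these 4 libraries rests on that match.

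The libraries are labelled as motoneurons but hold RNA of several cell types. The 6 markers of motor neurons summed to 234 to 349.9 CPM in SBES libraries, 130.2 to 325 CPM in untrained libraries and 164 to 423 CPM in sham libraries, where CPM is the count scaled to a common library total after TMM scaling. The 6 markers of oligodendrocytes, the myelin-forming cells, summed to 46619 to 76693 CPM in SBES libraries, 38096 to 57376 CPM in untrained libraries and 48832 to 108377 CPM in sham libraries. The 27 endothelial genes summed to 1453 to 2246 CPM in SBES libraries, 1341 to 1777 CPM in untrained libraries and 790.3 to 1279 CPM in sham libraries, and the 9 pericyte and smooth muscle genes to 206 to 263 CPM in SBES libraries, 285 to 369.9 CPM in untrained libraries and 157 to 285 CPM in sham libraries. SBES and untrained libraries were both above every sham library in the endothelial sum. Abundant genes weigh most in this sum, so it does not stand for all 27 genes. Ly6c1, Ly6a and Slc2a1 averaged 470, 300 and 361 CPM in SBES libraries and 198, 120 and 122 CPM in sham libraries. Singly, 10 of the 27 were higher in all SBES than in all sham libraries and 1 was lower (7.10% and 6.73% of all genes). For untrained against sham 7 were higher and 1 lower (4.63% and 5.13%). Untrained libraries were above every other library in the mural sum. That margin was narrow, with 285.5 CPM in untrained replicate 3 and 284.8 CPM in sham replicate 2. The 5 markers of neurons in general summed to 4162 to 7900.3 CPM in SBES libraries, 4499 to 5152 CPM in untrained libraries and 6191 to 8571 CPM in sham libraries. Untrained libraries were below every sham library in this sum, and whether this has a part in the endothelial difference was not tested. Singly, only the neurofilament gene Nefl was lower in all untrained than in all sham libraries (5.13% of all genes were so placed). Nefl had a log2 fold change of -0.95 for untrained against sham (SE 0.33, edgeR adjusted p = 0.999669). The others overlapped, with log2 fold changes of -0.18 for Rbfox3, -0.20 for Snap25, -0.55 for Tubb3 and 0.26 for Syt1. In such mixed libraries more vascular cells cannot be told apart from more RNA per vascular cell. Library totals ran from 11821145 to 17675948 counts. Replicate 1 libraries stood apart in all 3 groups by their Malat1 level, a nuclear RNA, which was 6279 CPM in SBES, 15268 CPM in untrained and 20798 CPM in sham replicate 1, against 465 to 1487 CPM in the other 6 libraries. Mitochondrial genes took 18.6% of the counts in SBES replicate 1.

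**Figure D1:**
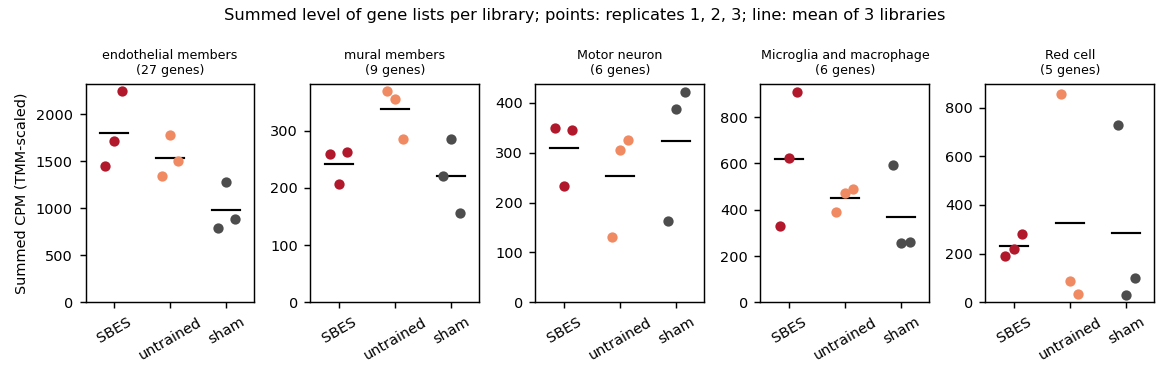
Summed CPM (TMM-scaled, linear axes from 0) of the endothelial and mural genes and of markers of other cell types, with a point per library and a line at the mean of the 3 libraries of a group. Endothelial sums of the 3 SBES and 3 untrained libraries lie above those of the 3 sham libraries, while microglial, red cell and motor neuron sums overlap between groups. Abundant genes such as Ly6c1, Ly6a and Slc2a1 weigh most in the endothelial sum.

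Of the 36 genes, 35 had counts in every library, with 4 counts as the lowest value. The exception was Anpep, which encodes the pericyte surface peptidase CD13 and had 0 to 2 counts per library; it did not pass the filter on low counts and was not tested. On the FPKM scale, which divides counts by exonic length and library total and so allows genes to be compared, Ly6c1 (196), Ly6a (169.6), Cldn5 (90.7), Itm2a (79.4) and Slc2a1 (69.8) had the highest means over the 9 libraries. The highest mural genes were Myl9 (55.0 FPKM), Higd1b (42.4 FPKM) and Vtn (37.3 FPKM). At the low end, Cdh5 (0.238 FPKM), Abcc9 (0.111 FPKM) and Anpep (0.0178 FPKM) had the lowest means; Cdh5 encodes VE-cadherin, the adhesion protein that defines endothelial adherens junctions. Mean FPKM exceeded 10 for 12 of the genes and was below 1 for 11.

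All 6 possible orders of the group means of CPM occurred. The order SBES, untrained, sham from high to low held for 14 genes, among them Eng, Slc2a1, Vwf, Esam, Ly6c1 and Ly6a. Untrained libraries were highest for 16 genes, with SBES above sham in 9 and below sham in 7, among them Itm2a, Slc38a5, Slco1c1, Ocln and Vtn. SBES was highest and untrained lowest for 4 genes, which were Pdgfrb, Abcc9, Acta2 and Tagln. Gkn3 alone had the order sham, untrained, SBES, and Anpep alone the order sham, SBES, untrained. These orders are of means and many neighbours in them overlap between libraries.

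**Figure D2:**
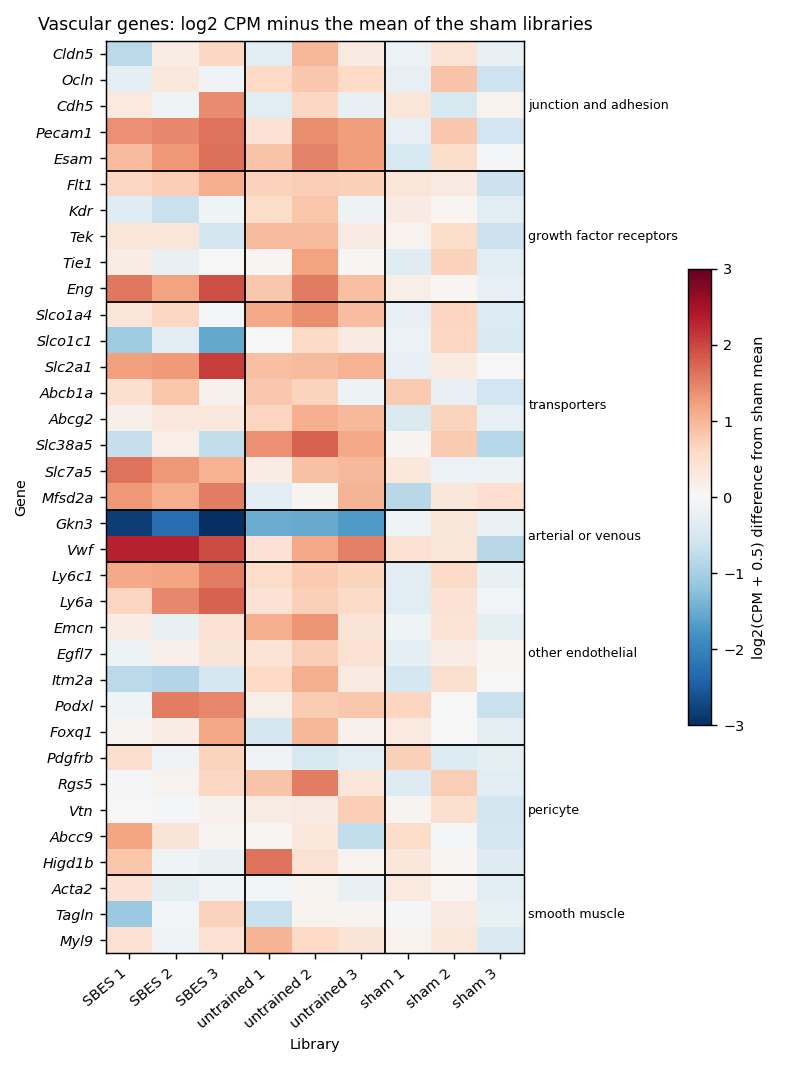
Heat map of the members other than Anpep in the 9 libraries, ordered by role group. Colours give the log2 CPM of each gene, after adding a small constant, minus its mean over the sham libraries. Most endothelial rows are lowest in the sham libraries, and the Gkn3 row runs the other way, with 0.247 CPM in SBES replicate 3 and 11.03 CPM in sham replicate 2.

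Mean levels of most endothelial genes were higher in untrained than in sham libraries, without passing the adjusted test. Log2 fold changes were positive for 26 of the 27 endothelial genes, with a median of 0.61, and for 4 of the 8 mural genes tested, with a median of 0.15; across all 15893 genes tested the median was -0.01, and 49.1% were positive and 50.9% negative. No gene of the table passed edgeR's quasi-likelihood test at an adjusted p under 0.05 (0% of genes tested). Without the filter on low counts edgeR called Slc38a5 (adjusted p = 0.00397), Esam (0.0132) and Eng (0.0294) higher and Gkn3 (0.00816) lower among the members given by library, of 134 genes in all, and from replicates 2 and 3 it called Slc7a5 higher (0.0484), of 47 genes. At an unadjusted p under 0.05 edgeR had 347 genes higher and 360 lower (2.18% and 2.27% of all genes), and 16 and 1 of the 35 members. DESeq2 called 12 genes higher and 6 lower (0.0756% and 0.0378%), and Gkn3, lower, was the member among them. Untrained and sham libraries did not overlap for 8 members that were higher (Esam, Flt1, Eng, Slco1a4, Slc2a1, Slc38a5, Egfl7 and Myl9), where 4.63% of all genes were so placed, and for Gkn3, which was lower, where 5.13% were.

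Between SBES and untrained libraries the members were divided, with carriers on both sides. Log2 fold changes were positive for 18 members and negative for 17, with a median of 0.00, against 51.7% positive, 48.3% negative and a median of 0.02 over all genes. Without the filter on low counts edgeR called Slc38a5 (adjusted p = 2.86e-06), Itm2a (2.79e-04), Slco1c1 (0.0175) and Gkn3 (0.0256) lower among the members given by library, of 186 genes in all. With the filter edgeR called no gene of the table (0%), with 588 higher and 266 lower at an unadjusted p under 0.05 (3.70% and 1.67%), of which 6 and 8 were members. DESeq2 called 23 genes higher and 7 lower (0.148% and 0.045%), and the members among them were Itm2a and Slc38a5, both lower. The groups did not overlap for 6 members that were higher (Slc2a1, Slc7a5, Mfsd2a, Vwf, Ly6c1 and Pdgfrb; 5.66% of all genes) and for 9 that were lower (Ocln, Slco1a4, Slco1c1, Abcg2, Slc38a5, Gkn3, Egfl7, Itm2a and Vtn; 4.77%).

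Between SBES and sham libraries edgeR called 55 of 15893 genes (0.346%), and 4 of them are members: Eng, Slc2a1 and Vwf rose and Gkn3 fell. DESeq2 called 221 genes higher and 79 lower (1.39% and 0.498%), including 8 members that were higher (Eng, Slc2a1, Vwf, Pecam1, Esam, Slc7a5, Ly6c1 and Ly6a) and Gkn3. The groups did not overlap for 10 members that were higher (7.10% of all genes), which are these 8 with Flt1 and Mfsd2a, and for Gkn3, lower (6.73%). Log2 fold changes were positive for 27 and negative for 8 of the 35 members, with a median of 0.26, where 49.8% of all genes were positive and 50.2% negative. At an unadjusted p under 0.05, 11 members were higher and 3 lower, against 5.70% and 3.61% of all genes. With the replicate number as a block, edgeR called 132 genes and 7 members higher, the added ones being Esam (adjusted p = 0.0206), Ly6a (0.0281), Ly6c1 (0.0297) and Slc7a5 (0.0461), and Gkn3 lower. From replicates 2 and 3 of each group, edgeR called 581 genes in all and 8 members higher, among them Eng (log2 fold change 1.78, adjusted p = 0.00924), Slc2a1 (1.61, adjusted p = 0.00556), Vwf (2.48, adjusted p = 0.00552), Esam, Ly6c1, Ly6a and Slc7a5, and Gkn3 lower (-3.51, adjusted p = 0.00433). Without SBES replicate 1 it called Eng, Slc2a1 and Ly6a higher and Gkn3 lower. Without SBES replicate 3, sham replicate 2 or sham replicate 3 edgeR called no member, and without sham replicate 1 it called Gkn3 only. The fit without SBES replicate 2 called Gkn3 and not Vwf, and its calls of other members are not given here. When 1 library was left out, the log2 fold changes ran from 1.45 to 1.83 for Eng and from 1.23 to 1.74 for Slc2a1. On log2(FPKM + 1), limma called Gkn3 and none of Eng, Slc2a1 and Vwf. The 3 comparisons share libraries, so their values are set side by side and are not independent.

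**Figure D3:**
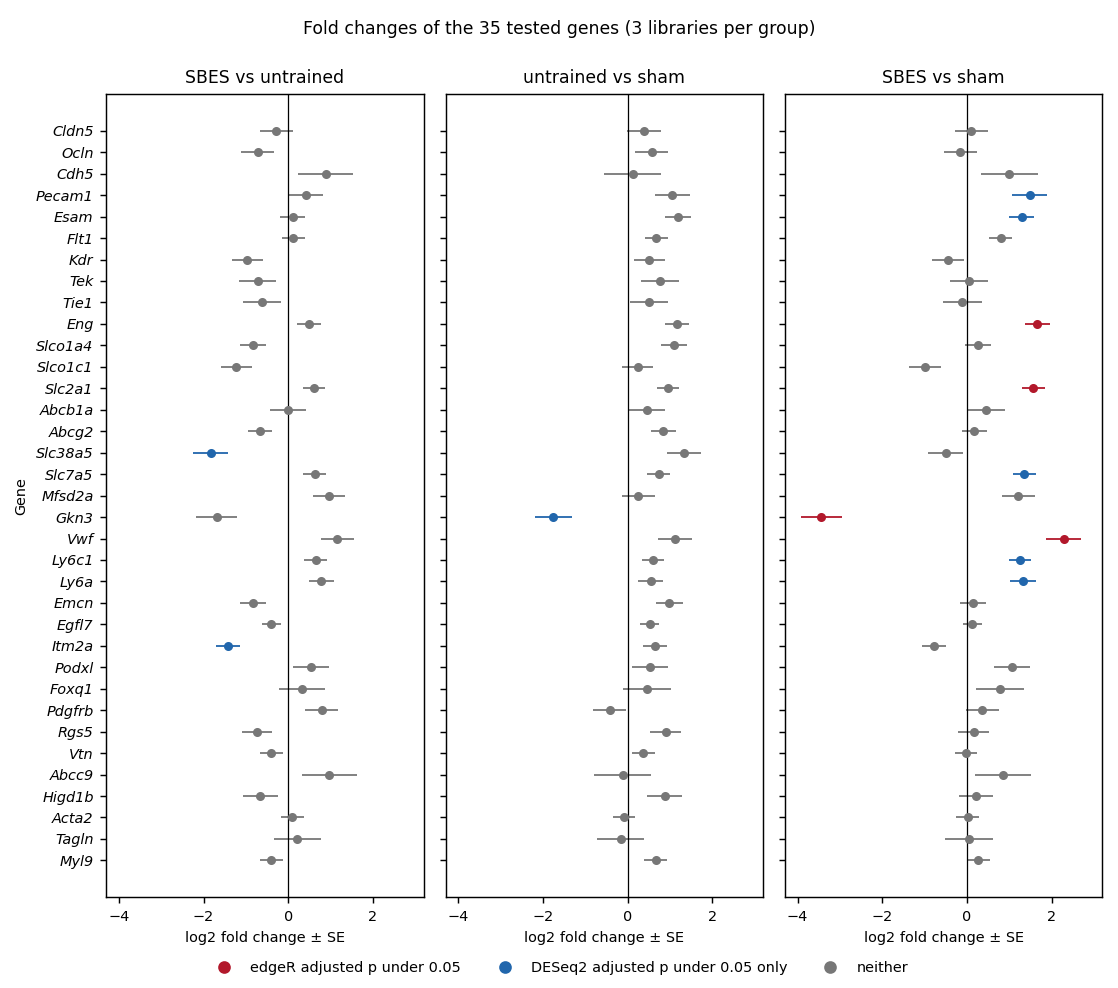
Log2 fold changes of the 35 members tested, by role group, in the comparisons of SBES with untrained, untrained with sham and SBES with sham libraries; bars are the standard error of the edgeR fit, and colours mark an adjusted p under 0.05 in edgeR (red), in DESeq2 only (blue) or in neither (grey). Red points are those of Eng, Slc2a1, Vwf and Gkn3 in SBES against sham, and most points of untrained against sham lie right of 0 without a red one.

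Of the junction genes, Cldn5 encodes claudin-5, the main sealing claudin of the barrier, and Esam and Pecam1 encode immunoglobulin-type adhesion proteins of endothelial contacts. Cldn5 had CPM of 60.8, 124 and 165 in SBES libraries, 83.6, 215 and 129 in untrained libraries and 93.5, 142 and 91.1 in sham libraries. Its libraries spread widely within each group and all 3 groups overlapped; SBES against sham gave a log2 fold change of 0.10 (SE 0.39, edgeR adjusted p = 0.972). Esam had CPM of 31.2, 39.9 and 51.8 in SBES libraries, 29.6, 45.9 and 38.9 in untrained libraries and 11.3, 23.3 and 15.6 in sham libraries. Every SBES and every untrained library was above every sham library, with a log2 fold change of 1.29 (SE 0.30, edgeR adjusted p = 0.114, DESeq2 adjusted p = 0.00917) for SBES and a log2 fold change of 1.19 (SE 0.30, edgeR adjusted p = 0.927, DESeq2 adjusted p = 0.138) for untrained against sham. Pecam1 had CPM of 8.01, 8.45 and 9.76 in SBES libraries, 3.96, 8.28 and 7.35 in untrained libraries and 2.28, 5.32 and 1.74 in sham libraries. SBES libraries lay above sham libraries with a log2 fold change of 1.48 (SE 0.42, edgeR adjusted p = 0.208, DESeq2 adjusted p = 0.04), a difference that DESeq2 called and edgeR did not. Ocln, which encodes the tight junction protein occludin, was lower in every SBES library than in every untrained one (log2 fold change of -0.72 with SE 0.39, edgeR adjusted p = 0.965).

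Among receptors, Eng encodes endoglin, a co-receptor for BMP and TGF-beta ligands, and Flt1 encodes VEGF receptor 1. Eng had CPM of 24.6, 18.9 and 31.9 in SBES libraries, 14.3, 24.1 and 15.2 in untrained libraries and 9.03, 8.24 and 6.64 in sham libraries. All SBES and all untrained libraries exceeded all sham libraries, and SBES and untrained libraries overlapped. Eng averaged 25.1 ± 6.50 CPM in SBES libraries and 7.97 ± 1.22 CPM in sham libraries (SD, n = 3 each), a log2 fold change of 1.66 (SE 0.29, edgeR adjusted p = 0.0386, DESeq2 adjusted p = 5.75e-05). The untrained against sham difference was a log2 fold change of 1.17 (SE 0.29, edgeR adjusted p = 0.884, DESeq2 adjusted p = 0.132). Flt1 had CPM of 21.0, 23.1 and 29.4 in SBES libraries, 22.3, 23.1 and 22.6 in untrained libraries and 17.6, 16.5 and 8.55 in sham libraries. It was higher in every injured library than in every sham library, without passing either test: a log2 fold change of 0.79 (SE 0.28, edgeR adjusted p = 0.35, DESeq2 adjusted p = 0.206) for SBES and a log2 fold change of 0.68 (SE 0.28, edgeR adjusted p = 0.999669, DESeq2 adjusted p = 0.851) for untrained against sham. Kdr (VEGF receptor 2), Tek (the angiopoietin receptor Tie2) and its partner Tie1 overlapped between all groups. Their log2 fold changes for SBES against sham were -0.45, 0.04 and -0.11. For SBES against untrained they were -0.96, -0.72 and -0.62, and for untrained against sham 0.52, 0.77 and 0.51. None of these passed either test.

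Of the 8 transporters, SBES and untrained libraries did not overlap for 7. Of these, 3 were higher and 4 lower in SBES, where 5.66% and 4.77% of all genes were so placed. On the higher side, Slc2a1, which encodes the glucose carrier GLUT1, had CPM of 282, 291 and 509 in SBES libraries, 226, 233 and 249 in untrained libraries and 101, 145 and 119.9 in sham libraries. The 3 groups did not overlap with each other. Slc2a1 averaged 361 ± 129 CPM in SBES libraries and 122 ± 21.7 CPM in sham libraries (SD, n = 3 each), a log2 fold change of 1.56 (SE 0.27, edgeR adjusted p = 0.0366, DESeq2 adjusted p = 2.02e-05); untrained against sham gave a log2 fold change of 0.95 (SE 0.26, edgeR adjusted p = 0.927, DESeq2 adjusted p = 0.257), and SBES against untrained a log2 fold change of 0.61 (SE 0.26, edgeR adjusted p = 0.914, DESeq2 adjusted p = 0.803). Slc7a5, which encodes the large neutral amino acid carrier LAT1, had CPM of 48.1, 37.7 and 31.6 in SBES libraries, 17.8, 28.1 and 30.2 in untrained libraries and 19.0, 13.4 and 13.5 in sham libraries. SBES libraries were above all others, and DESeq2 called the rise over sham: a log2 fold change of 1.36 (SE 0.27, edgeR adjusted p = 0.0624, DESeq2 adjusted p = 7.65e-04). Mfsd2a, which encodes the carrier of lysophospholipid-bound omega-3 fatty acids that also restrains vesicle transport, had CPM of 118, 101 and 139 in SBES libraries, 37.2, 50.3 and 96.3 in untrained libraries and 26.2, 60.5 and 67.1 in sham libraries. All SBES libraries were above all untrained and sham libraries, but neither test passed: a log2 fold change of 1.21 (SE 0.39, edgeR adjusted p = 0.276, DESeq2 adjusted p = 0.0943) against sham and a log2 fold change of 0.96 (SE 0.38, edgeR adjusted p = 0.914, DESeq2 adjusted p = 0.692) against untrained.

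On the lower side, Slc38a5, which encodes a glutamine carrier of the system N type, had CPM of 7.34, 14.1 and 7.10 in SBES libraries, 32.1, 42.5 and 27.6 in untrained libraries and 12.9, 21.3 and 6.48 in sham libraries. Untrained libraries were above every SBES and every sham library. DESeq2 called the difference between SBES and untrained libraries, which edgeR did not: a log2 fold change of -1.83 (SE 0.41, edgeR adjusted p = 0.631, DESeq2 adjusted p = 0.0116). From replicates 2 and 3 of each group, edgeR gave -1.75 (adjusted p = 0.273), and without SBES replicate 1 -1.69 (adjusted p = 0.577). Slco1c1, which encodes a thyroid hormone carrier, had CPM of 7.34, 12.7 and 5.19 in SBES libraries, 15.97, 24.0 and 19.3 in untrained libraries and 14.0, 24.5 and 11.6 in sham libraries. It was lower in all SBES than in all untrained libraries, with a log2 fold change of -1.23 (SE 0.37, edgeR adjusted p = 0.749, DESeq2 adjusted p = 0.232). Slco1a4 (an organic anion carrier) and Abcg2 (the efflux pump BCRP) were placed in the same way, with log2 fold changes of -0.84 and -0.66 and unadjusted p under 0.05. Abcb1a, which encodes the efflux pump P-glycoprotein, overlapped between all groups (log2 fold change 0.00 for SBES against untrained). Within each library, which needs no scaling between libraries, the ratio of Slc7a5 to Slc38a5 CPM was 6.55, 2.67 and 4.45 in SBES libraries, 0.554, 0.661 and 1.10 in untrained libraries and 1.47, 0.628 and 2.08 in sham libraries; the pair was chosen after its values were seen. All 3 SBES ratios were above those of the other 6 libraries.

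Between SBES and sham libraries the arterial member Gkn3 fell and the venous member Vwf rose. In a wider list of 9 arterial genes, 4 of the 7 tested were positive, with a median of 0.21. DESeq2 called Mgp higher and none lower, against 1.39% and 0.498% of all genes. The list summed to 94.2 to 99.5 CPM in SBES libraries, 74.6 to 82.1 CPM in untrained libraries and 65.6 to 73.0 CPM in sham libraries. Mgp held much of this sum, with 56.5, 52.1 and 53.0 CPM in SBES libraries and 33.5, 22.7 and 15.7 CPM in sham libraries. It was the only tested gene of the list for which SBES and sham libraries did not overlap (7.10% of all genes were higher without overlap). The sum therefore does not show a rise of arterial genes in general. Gkn3 encodes gastrokine 3, a marker of arterial endothelium in the mouse brain, and Vwf encodes von Willebrand factor, the clotting protein that is richest in veins and large vessels. Gkn3 had CPM of 0.779, 1.38 and 0.247 in SBES libraries, 2.77, 2.72 and 2.29 in untrained libraries and 7.83, 11.03 and 7.40 in sham libraries, from 7, 20 and 4 counts in SBES libraries, 42, 49 and 38 counts in untrained libraries and 72, 174 and 136 counts in sham libraries. No groups overlapped. Gkn3 averaged 0.804 ± 0.569 CPM in SBES libraries and 8.75 ± 1.98 CPM in sham libraries (SD, n = 3 each), a log2 fold change of -3.45 (SE 0.48, edgeR adjusted p = 0.0149, DESeq2 adjusted p = 7.44e-10). Untrained against sham gave a log2 fold change of -1.75 (SE 0.43, edgeR adjusted p = 0.881, DESeq2 adjusted p = 0.0304), and SBES against untrained a log2 fold change of -1.69 (SE 0.48, edgeR adjusted p = 0.749, DESeq2 adjusted p = 0.122). Without SBES replicate 3, sham replicate 2 or sham replicate 3 the adjusted p of SBES against sham was 0.0558, 0.0731 and 0.0945. Its log2 fold change was -2.97 without SBES replicate 3 and -4.20 without SBES replicate 2, and for SBES against untrained it was -1.22 and -2.45 without the same libraries. From replicates 2 and 3 of each group, untrained against sham gave -1.84 (edgeR adjusted p = 0.174).

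Vwf had CPM of 16.1, 16.3 and 12.7 in SBES libraries, 4.09, 6.89 and 9.16 in untrained libraries and 4.13, 3.87 and 1.42 in sham libraries. SBES libraries were above all others, and untrained libraries overlapped with sham libraries. Vwf averaged 15.1 ± 2.03 CPM in SBES libraries and 3.14 ± 1.498 CPM in sham libraries (SD, n = 3 each), a log2 fold change of 2.28 (SE 0.41, edgeR adjusted p = 0.0442, DESeq2 adjusted p = 1.63e-05), and SBES against untrained gave a log2 fold change of 1.16 (SE 0.39, edgeR adjusted p = 0.867, DESeq2 adjusted p = 0.386). Leaving out any 1 of the 6 SBES and sham libraries ended the edgeR call of Vwf, with adjusted p of 0.0554 to 0.186, while its log2 fold change stayed between 1.91 and 2.53. Within libraries the ratio of Vwf to Gkn3 CPM was 20.7, 11.8 and 51.5 in SBES libraries, 1.48, 2.53 and 4.00 in untrained libraries and 0.528, 0.351 and 0.191 in sham libraries. The 3 groups did not overlap in this ratio, which was also formed after the values were seen.

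**Figure D4:**
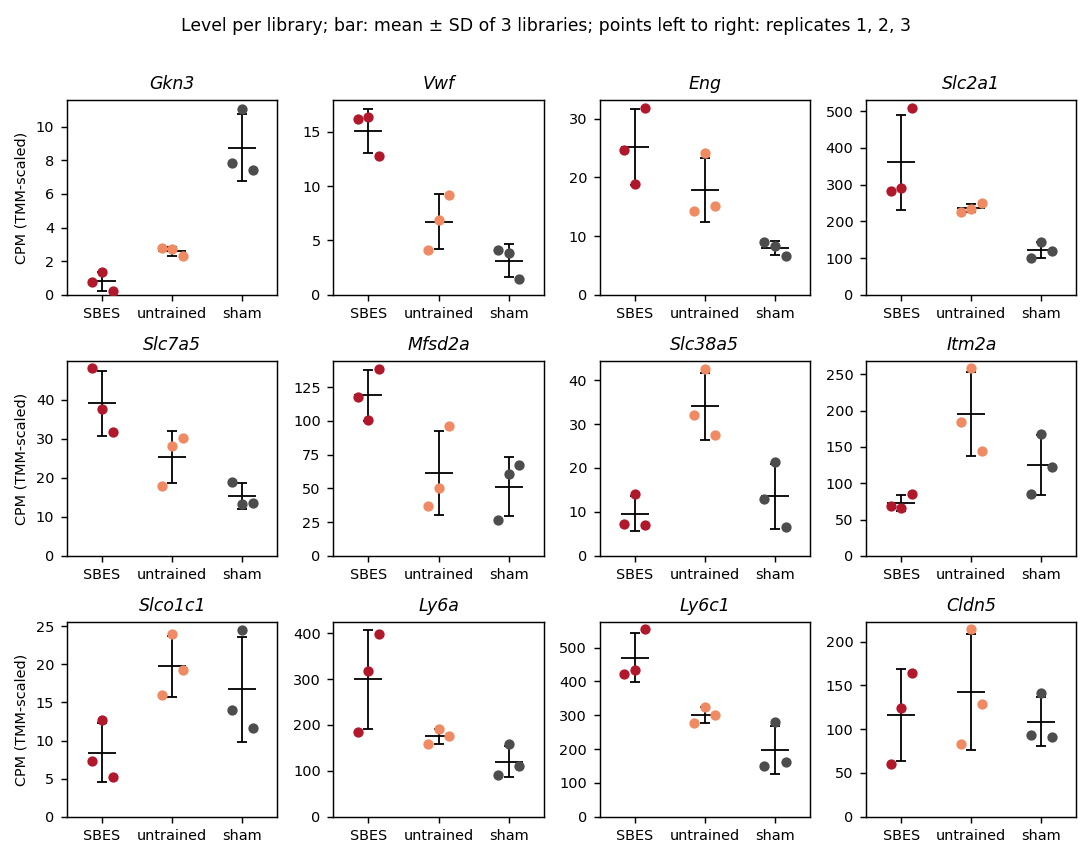
CPM (TMM-scaled, linear axes from 0) of 12 members in each library, with points for replicates 1, 2 and 3 from left to right and bars for the mean ± SD of the 3 libraries of a group. Slc2a1 and Gkn3 separate all 3 groups, in opposite orders, and Itm2a and Slc38a5 are lower in the 3 SBES libraries than in the 3 untrained libraries.

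Promoters of members that edgeR or DESeq2 called in some comparison are printed to show the sequence at the start of these genes. They are from RefSeq on GRCm38.p6, 250 bases before to 50 after the annotated start, 5′ to 3′ on the gene's strand, and capitals mark matches to the motifs named next. The start regions of 3 members that edgeR called and of the 2 that DESeq2 called between SBES and untrained are Gkn3 (chr6:87388886-87389185, minus strand), Eng (chr2:32646345-32646644, plus strand), Slc2a1 (chr4:119108495-119108794, plus strand), Slc38a5 (chrX:8271131-8271430, plus strand) and Itm2a (chrX:107403311-107403610, minus strand).
Gkn3: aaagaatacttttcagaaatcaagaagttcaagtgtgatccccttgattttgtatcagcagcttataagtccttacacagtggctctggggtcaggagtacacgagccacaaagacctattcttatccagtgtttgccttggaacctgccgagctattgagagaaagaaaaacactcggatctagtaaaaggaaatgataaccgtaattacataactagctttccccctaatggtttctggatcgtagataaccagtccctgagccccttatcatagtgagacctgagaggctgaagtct
Eng: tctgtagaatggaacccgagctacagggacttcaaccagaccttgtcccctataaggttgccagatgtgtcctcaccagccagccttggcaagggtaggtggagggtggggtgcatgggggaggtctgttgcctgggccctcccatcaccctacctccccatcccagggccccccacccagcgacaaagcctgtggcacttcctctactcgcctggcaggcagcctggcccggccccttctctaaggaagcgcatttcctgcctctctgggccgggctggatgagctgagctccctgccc
Slc2a1: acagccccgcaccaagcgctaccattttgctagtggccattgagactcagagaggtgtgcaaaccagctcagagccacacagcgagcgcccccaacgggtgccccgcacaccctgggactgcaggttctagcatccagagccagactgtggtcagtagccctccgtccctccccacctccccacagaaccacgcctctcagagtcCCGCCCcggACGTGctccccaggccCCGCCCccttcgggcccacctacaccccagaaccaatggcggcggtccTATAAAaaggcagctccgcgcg
Slc38a5: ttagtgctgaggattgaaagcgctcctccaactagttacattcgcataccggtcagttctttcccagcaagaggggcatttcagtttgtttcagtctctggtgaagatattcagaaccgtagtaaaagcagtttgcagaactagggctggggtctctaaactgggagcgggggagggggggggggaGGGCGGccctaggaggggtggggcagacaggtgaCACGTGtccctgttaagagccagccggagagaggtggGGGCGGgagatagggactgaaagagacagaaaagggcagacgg
Itm2a: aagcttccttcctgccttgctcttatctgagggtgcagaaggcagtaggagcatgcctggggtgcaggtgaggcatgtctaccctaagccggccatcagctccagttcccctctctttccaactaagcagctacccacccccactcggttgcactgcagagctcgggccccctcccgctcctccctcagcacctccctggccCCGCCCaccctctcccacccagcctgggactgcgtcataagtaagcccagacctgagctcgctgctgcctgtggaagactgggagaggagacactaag
Motifs were searched on both strands and could overlap. Shares are of the 25 members with an entry and of all genes in the RefSeq table with at least 1 promoter that holds the motif. GGGCGG, the GC box, was in 12 of the 25 members (48.0%) and in 38.2% of all genes. ACGTG, the core of hypoxia response elements, was in 4 of 25 and in 21.8% of all genes, and TATAAA in 6 of 25 and 15.7%. CCGGAA, a form of the ETS site, was in 2 of 25 and 16.7%, and other forms of that site were not searched. CTTTGA, the core of TCF and LEF sites, was in 4 of 25 and 18.2%, and the CArG box, a site of serum response factor, in Myl9 and 1.81%. Slc2a1 holds 2 GC boxes, ACGTG and TATAAA. Slc38a5 holds 2 GC boxes and the single stretch CACGTG, which reads as ACGTG on both strands. Itm2a holds a GC box, and Gkn3 and Eng hold none of the 6 motifs, in the forms searched, in these windows.

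The remaining endothelial genes hold the most abundant members. Ly6c1 and Ly6a encode GPI-anchored surface proteins of the Ly6 family, Ly6a being the antigen Sca-1, and reads may be split between near-identical family members. Ly6c1 had CPM of 421, 435 and 554 in SBES libraries, 277, 325 and 300.0 in untrained libraries and 151, 281 and 162 in sham libraries. All SBES libraries were above all untrained and sham libraries, and DESeq2 but not edgeR called the rise over sham: a log2 fold change of 1.25 (SE 0.27, edgeR adjusted p = 0.0852, DESeq2 adjusted p = 0.0016). Ly6a had CPM of 184, 317 and 398 in SBES libraries, 158, 192 and 175 in untrained libraries and 92.0, 158 and 110.0 in sham libraries. SBES libraries were above sham libraries and overlapped with untrained ones, with a log2 fold change of 1.32 (SE 0.30, edgeR adjusted p = 0.105, DESeq2 adjusted p = 0.0047) against sham. Itm2a, which encodes a transmembrane protein enriched in barrier endothelium, had its lowest mean in SBES libraries. Its CPM was 68.5, 65.2 and 85.1 in SBES libraries, 184, 258 and 145 in untrained libraries and 84.9, 168 and 122 in sham libraries. Every SBES library was below every untrained library, and DESeq2 called this difference: a log2 fold change of -1.42 (SE 0.29, edgeR adjusted p = 0.457, DESeq2 adjusted p = 0.00836). From replicates 2 and 3 of each group, edgeR gave it -1.45 (adjusted p = 0.114), and without SBES replicate 1 -1.38 (adjusted p = 0.51). Egfl7, which encodes a secreted vessel protein and hosts miR-126 in an intron, was likewise lower in SBES than in untrained libraries (-0.40) and higher in untrained than in sham libraries (0.52) without overlap and without passing the test. Emcn and Podxl, which encode sialomucins of the vessel surface, and the transcription factor gene Foxq1 overlapped between all groups. Exons of Foxq1 share 3200 of 4843 bases with A530084C06Rik on the opposite strand, so without a stated strand setting their reads cannot be told apart.

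Neither edgeR nor DESeq2 called any of the 8 mural genes tested in any comparison. Higd1b, which marks pericytes, had CPM of 47.2, 24.2 and 22.7 in SBES libraries, 83.1, 36.2 and 28.7 in untrained libraries and 33.3, 27.6 and 20.0 in sham libraries. Its groups overlapped in every comparison. Vtn, which encodes vitronectin, a matrix protein that pericytes secrete, had CPM of 65.9, 63.1 and 70.5 in SBES libraries, 75.5, 77.8 and 109.6 in untrained libraries and 68.4, 90.2 and 44.4 in sham libraries. It was lower in all SBES than in all untrained libraries, with a log2 fold change of -0.40 (SE 0.27, edgeR adjusted p = 0.993, DESeq2 adjusted p = 0.999852). Pdgfrb, which encodes the PDGF receptor of pericytes, was the one mural gene higher in all SBES than in all untrained libraries. Its log2 fold change was 0.79 (SE 0.39, edgeR adjusted p = 0.954, DESeq2 adjusted p = 0.927). The margin was narrow, with 3.32 CPM in SBES replicate 2 and 3.30 CPM in untrained replicate 1. Rgs5, a regulator of G protein signals in pericytes, and Abcc9, a subunit of the pericyte potassium channel, overlapped between all groups.

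Of the smooth muscle genes, Myl9 (myosin light chain) had CPM of 67.2, 45.0 and 67.4 in SBES libraries, 99.6, 73.4 and 63.8 in untrained libraries and 52.5, 61.0 and 35.9 in sham libraries. All untrained libraries were above all sham libraries, with a log2 fold change of 0.66 (SE 0.27, edgeR adjusted p = 0.999669, DESeq2 adjusted p = 0.835). Acta2 (smooth muscle actin) had CPM of 21.0, 12.9 and 14.1 in SBES libraries, 14.8, 16.6 and 13.3 in untrained libraries and 19.0, 16.2 and 12.2 in sham libraries. Its groups overlapped, and its log2 fold change for SBES against sham was 0.02 (SE 0.26). Tagln (transgelin) overlapped between all groups, and 1241 of its 1988 exonic bases are shared with Gm48529 on the opposite strand. The pericyte genes summed to 147 to 178 CPM in SBES libraries, 207 to 264 CPM in untrained libraries and 107 to 206 CPM in sham libraries, and the smooth muscle genes to 59.3 to 88.7 CPM in SBES libraries, 78.7 to 115 CPM in untrained libraries and 49.4 to 79.2 CPM in sham libraries.

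Partners of these genes in the same pathways were read from wider lists. edgeR called none of their genes in any comparison; at an unadjusted p under 0.05 it had, of the 19 tested genes of VEGF, angiopoietin, TGF-beta and Notch signals, 5 higher and 0 lower in untrained than sham (2.18% and 2.27% of all genes), 7 higher and 0 lower in SBES than sham (5.70% and 3.61%), and 2 higher and 2 lower in SBES than untrained (3.70% and 1.67%). Adm, which encodes the vessel-relaxing peptide adrenomedullin, averaged 26.9 ± 7.12 CPM in untrained libraries and 7.86 ± 1.94 CPM in sham libraries, a log2 fold change of 1.76 (SE 0.30, edgeR adjusted p = 0.184, DESeq2 adjusted p = 1.62e-04). Angptl4, an angiopoietin-like protein, averaged 17.8 ± 17.7 CPM in SBES libraries and 1.89 ± 0.837 CPM in sham libraries, a log2 fold change of 3.21 (SE 0.68, edgeR adjusted p = 0.0746, DESeq2 adjusted p = 4.55e-05), and Angpt2, the Tie2 ligand released by activated endothelium, averaged 6.39 ± 7.05 CPM in SBES libraries and 0.507 ± 0.549 CPM in sham libraries, a log2 fold change of 3.60 (SE 0.86, edgeR adjusted p = 0.126, DESeq2 adjusted p = 5.35e-04). Both were highest in SBES replicate 3, and without it the SBES means were 7.72 CPM for Angptl4 and 2.33 CPM for Angpt2. DESeq2 called 4 genes of this list as higher in SBES than in sham libraries (1.39% of all genes). They were Angptl4, Angpt2, Robo4 and Ptprb. DESeq2 also called Adm as higher in untrained than in sham libraries (0.0756% of all genes).

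Of 16 tested genes of Wnt signals that build the barrier, DESeq2 called Sox17 higher and Wnt7a lower in SBES than in sham libraries. Over all genes it called 1.39% higher and 0.498% lower. Wnt7a, which encodes a ligand that neural cells send to barrier endothelium, averaged 2.45 ± 1.40 CPM in SBES libraries and 8.83 ± 1.34 CPM in sham libraries, a log2 fold change of -1.85 (SE 0.40, edgeR adjusted p = 0.0852, DESeq2 adjusted p = 0.00115). Sox17, a transcription factor of arterial endothelium, gave a log2 fold change of 1.37 (SE 0.33, edgeR adjusted p = 0.128, DESeq2 adjusted p = 0.0122). Of 16 other carriers tested, DESeq2 called Slc22a8, an organic anion carrier, lower in SBES than in untrained libraries (0.045% of all genes). Its log2 fold change was -1.54 (SE 0.31, edgeR adjusted p = 0.457, DESeq2 adjusted p = 0.00681). The 10 tested partners of tight and adherens junctions, among them Tjp1, had no call by either tool, with medians of -0.12 for SBES against untrained, 0.18 for SBES against sham and -0.04 for untrained against sham.

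Markers of other cells that could carry such transcripts did not pass either test in any comparison. Microglia and macrophage markers summed to 329 to 908 CPM in SBES libraries, 389 to 491 CPM in untrained libraries and 255 to 592 CPM in sham libraries; 6 of 6 were positive for untrained against sham, with a median of 0.28. Astrocyte markers summed to 2379 to 4959 CPM in SBES libraries, 1644 to 4216 CPM in untrained libraries and 2261 to 4091 CPM in sham libraries, and astrocytes also express Slc2a1 and Slco1c1. Of the 8 fibroblast and meningeal markers, Ptgds, which oligodendrocytes also express, made up nearly the whole sum, with 5468 to 14439.8 CPM in SBES libraries, 1528 to 6403 CPM in untrained libraries and 2591 to 6236 CPM in sham libraries; the other 7 summed to 22.8 to 28.8 CPM in SBES libraries, 23.6 to 36.9 CPM in untrained libraries and 21.3 to 30.7 CPM in sham libraries, which overlapped between all groups. Red cell genes summed to 191 to 280.2 CPM in SBES libraries, 32.2 to 854 CPM in untrained libraries and 28.2 to 727 CPM in sham libraries, which overlapped between all groups. Oligodendrocyte markers had negative log2 fold changes for untrained against sham in 6 of 6 and positive ones for SBES against untrained in 6 of 6, as had 6 of 6 astrocyte markers in the second comparison. In that comparison the microglial genes Cx3cr1, P2ry12 and Aif1 were lower in every SBES than in every untrained library, with log2 fold changes of -0.51, -0.94 and -0.89. The part of these cells in the differences above was not tested.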

How the data were processed

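Per the labels' protocols, motoneuron RNA was read by Smart-seq2. Per the submitters' processing notes, the tools include Hisat2 2.0.1 and HTSeq 0.6.1 and the build is mm10; no source used here gives the strand setting. The deposited table holds the authors' whole-number counts and FPKM (counts per exonic length and library total) for each library, with gene sizes; all FPKM recomputed from the counts came out within 0.006. 4 libraries were matched to columns by elimination.

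Counts were tested with edgeR 4.0.16 in R 4.3.3: filterByExpr left 15893 genes, TMM scaled the libraries, and 1 quasi-likelihood fit over all 9 libraries gave the comparisons, with Benjamini-Hochberg adjustment over all genes tested and calls at an adjusted p under 0.05. SE is the log2 fold change divided by the root of F. Alternatives were DESeq2 1.42.0, limma 3.58.1 on log2(FPKM + 1) or log2(FPKM + 0.1), another scaling, no filter, fits of 6 libraries, a replicate block, replicates 2 and 3 only, and leaving out each library. Totals of 11821145 to 17675948 counts limit the precision of low genes, and the counts may hold PCR copies of 1 molecule. edgeR was tested on simulated data.

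Values in every library are given for the 2 members of highest FPKM in each role group, the 4 of smallest edgeR p in each comparison and any member called by edgeR or DESeq2; of each wider list up to 2 genes of smallest p per comparison are named. Members, lists and tests were chosen with earlier results of these data known. Same-numbered SBES and sham libraries deviated together in 3 of 3 pairs (r of 0.186 to 0.330), so the blocked values of that comparison stand beside its results. SBES replicate 3 and sham replicate 2, of unlike number, had r of 0.211. Across all groups, a library's best match in another group had its own number in 10 of 18 checks. The labels give no source for this pairing.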

Additional observations from a re-analysis of the deposited data

How the results depend on the processing

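Over 57 results on named members and 798 alternative values, 708 kept direction and side of the threshold, 32 newly passed, 24 no longer passed and 34 turned direction, the last all in differences that edgeR did not call. For untrained against sham, no gene was called in the main analysis, against 18 with DESeq2, 134 without the filter, 1 with limma on log2(FPKM + 0.1), 4 with the replicate block and 47 from replicates 2 and 3 only; the members' median was 0.87 with limma on log2(FPKM + 0.1). For SBES against untrained, the 0 genes called became 30 with DESeq2, 186 without the filter, 13 from replicates 2 and 3 only and 0 to 1 when 1 library was left out, with a members' median of -0.43 to 0.13. For SBES against sham, the 55 genes called became 300 with DESeq2, 517 without the filter, 21 and 30 with limma on log2(FPKM + 1) and log2(FPKM + 0.1), 132 with the replicate block, 581 from replicates 2 and 3 only and 0 to 86 when 1 library was left out. With the replicate block no gene was called for SBES against untrained; the same-numbered pairs correlated above 0.1 in 2 of 3 there and in 2 of 3 for untrained against sham. The cause was not tested for any of these changes.

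Directions that turned were of small differences. With limma on log2(FPKM + 1) and log2(FPKM + 0.1), the log2 fold changes were 0.1253 and 0.1421 for Acta2 in untrained against sham, -0.1131 and -0.1240 for Esam, -0.0660 and -0.1122 for Flt1 and -0.1267 and -0.1417 for Acta2 in SBES against untrained, and 0.0223 and 0.0250 for Vtn in SBES against sham, where Acta2 had -0.0013 with the first. Replicates 2 and 3 only gave Acta2 log2 fold changes of 0.1046, -0.1691 and -0.0645 for untrained against sham, SBES against untrained and then SBES against sham, and Higd1b -0.0147 in SBES against sham. Leaving out 1 library gave, for untrained against sham, -0.0362 to 0.6944 for Cldn5, -0.2299 to 0.5465 for Mfsd2a and -0.24 to 0.11 for Acta2; for SBES against untrained, -0.62 to 0.14 for Cldn5, -0.10 to 0.26 for Esam, -0.0368 to 0.21 for Flt1 and -0.14 to 0.23 for Acta2; and for SBES against sham, -0.23 to 0.44 for Cldn5, -0.17 to 0.41 for Higd1b, -0.25 to 0.24 for Vtn and -0.20 to 0.19 for Acta2. The cause was not tested.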

Other observations

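Further vascular markers outside the 36 genes were described in the same way. Of 21 tested other endothelial markers, log2 fold changes were positive for 20 for untrained against sham, with a median of 0.80, and for 18 for SBES against sham, with a median of 0.74; untrained and sham libraries did not overlap for 10 of them, all higher (4.63% of all genes). edgeR called none of them. Clec14a, an endothelial surface lectin, averaged 10.3 ± 1.70 CPM in untrained libraries and 3.80 ± 2.22 CPM in sham libraries, a log2 fold change of 1.43 (SE 0.38, edgeR adjusted p = 0.927, DESeq2 adjusted p = 0.138). Rasip1, which encodes a protein needed for vessel lumens, averaged 12.5 ± 8.68 CPM in SBES libraries and 2.82 ± 1.73 CPM in sham libraries, a log2 fold change of 2.15 (SE 0.54, edgeR adjusted p = 0.145, DESeq2 adjusted p = 0.00566). Car4, a carbonic anhydrase of capillary endothelium, was lower in all SBES than in all untrained libraries, a log2 fold change of -1.48 (SE 0.41, edgeR adjusted p = 0.749, DESeq2 adjusted p = 0.13).

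Venous and leukocyte adhesion genes had a median log2 fold change of 1.45 for SBES against sham over 6 tested genes. DESeq2 called 3 of them higher and 0 lower in that comparison (1.39% and 0.498% of all genes). For SBES against untrained it called 1 higher and 0 lower (0.148% and 0.045%), with a median of 0.34. Ackr1, the chemokine receptor of venules, averaged 60.3 ± 29.2 CPM in SBES libraries and 14.2 ± 10.9 CPM in sham libraries, a log2 fold change of 2.09 (SE 0.51, edgeR adjusted p = 0.133, DESeq2 adjusted p = 0.00281). Its SBES mean was 48.3 CPM without SBES replicate 3. Lcn2, which encodes lipocalin 2 and is also made by reactive astrocytes and neutrophils, averaged 299 ± 287 CPM in SBES libraries and 19.8 ± 18.9 CPM in sham libraries, a log2 fold change of 3.93 (SE 0.75, edgeR adjusted p = 0.0521, DESeq2 adjusted p = 7.93e-04), with an SBES mean of 134 CPM without SBES replicate 3; without it the SBES mean of Rasip1 was 7.63 CPM. Of the arterial list, Mgp, which encodes matrix Gla protein, averaged 53.9 ± 2.34 CPM in SBES libraries and 24.0 ± 8.95 CPM in sham libraries, a log2 fold change of 1.17 (SE 0.27, edgeR adjusted p = 0.111, DESeq2 adjusted p = 0.00588). Other mural genes that DESeq2 called were Mustn1 and Ndufa4l2, both higher in SBES than in sham libraries (1.39% of all genes). Mustn1 had a log2 fold change of 2.07 (SE 0.42, edgeR adjusted p = 0.0638, DESeq2 adjusted p = 3.00e-04). Ndufa4l2 had 1.90 (SE 0.50, edgeR adjusted p = 0.157, DESeq2 adjusted p = 0.00945). Among SBES libraries both were highest in replicate 3. Without it the SBES mean went from 15.0 to 10.8 CPM for Mustn1 and from 18.5 to 13.4 CPM for Ndufa4l2.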
